A study of Mus musculus with 9 samples.

Results

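The nuclear pore proteins, importins and exportins measured here are 43 of the 20618 genes in the tables. They were chosen by symbol alone: names beginning with Nup, Ipo or Xpo and a digit, names beginning with Kpna, Kpnb or Tnpo, and Ran. No chosen symbol was marked as a pseudogene. The 43 genes comprise 20 pore proteins, 22 rows for transport receptors and Ran. The nuclear pore complex is a ring-shaped channel through the nuclear envelope, built from many copies of proteins called nucleoporins. Importins bring proteins with a nuclear localisation signal into the nucleus and exportins take cargo out, and the small GTPase Ran sets the direction, since its GTP-bound form is kept high in the nucleus. In an activated T cell, traffic through the pore carries transcription factors and histones inward, and ribosomal subunits and messenger RNA outward.

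RNA was sequenced from sorted live wild type mouse CD8+ T cells, primary cytotoxic lymphocytes, after 24 h in 1 of 3 media, with 3 libraries for each medium. The media held 2 mM glucose, 2 mM inosine, or 2 mM inosine together with hypoxanthine, and all of them held 10% dialyzed serum. Inosine is a purine nucleoside whose base is hypoxanthine. The hypoxanthine dose has lost its unit prefix in the labels and is not given here, and no age or strain of mouse is given in the sources used here. The labels do not say whether a medium's 3 libraries are separate animals or cultures. A p-value here therefore reflects the spread among the libraries, and that spread may be technical. Levels are in FPKM, fragments scaled to transcript length and library size, which allows comparison between genes of different length.

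The group means of normalized read counts that the authors deposited summed to between 37538501 and 40218926, depending on the medium and the comparison. Being normalized means, they do not give the depth of each library. Of the 7 CD8 T cell markers, 5 were in the tables, and they summed to 591 to 637 FPKM in the glucose libraries, 543 to 721 in inosine and 1056 to 1140.0 with hypoxanthine. Markers of CD4 T cells (Cd4 and Foxp3, at most 0.0720 FPKM in sum) and of myeloid (0.240 to 0.731) and erythroid cells (0.128 to 0.398) were near 0, and the myeloid marker Adgre1 was at 0 in all glucose and inosine libraries. The summed markers of B cells (1.32 to 1.84) and NK cells (8.48 to 11.7) were low in every library, and nearly all of the NK sum was Eomes (8.27 to 11.4), which CD8 T cells also express, while Ncr1 and Klrb1c were at most 0.0420 and 0.199. A pair of libraries stood apart from the others. Mitochondrial genes took 6.50% of FPKM in inosine replicate 2 and 5.84% in inosine plus hypoxanthine replicate 2, against 4.03% to 4.82% in the other 7.

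Levels of the 43 genes spanned a wide range. Ran was the highest, with a mean of 307 FPKM over the 9 libraries, followed by the import adaptor Kpna2 at 145, the import carrier Kpnb1 at 88.98 and the ribosomal protein importer Ipo5 at 86.6. The 9 libraries of Ran (233 to 377) lay above those of Kpna2 (119 to 180), which lay above those of Kpnb1 (66.4 to 105). Kpnb1 and Ipo5 overlapped. Below Ipo5 came Ipo7 (50.97), the main exportin Xpo1 (49.5), Nup85 (47.4), Nup88 (45.7) and Nup107 (39.1), and from Ipo7 down to Nup160 (6.38) each gene overlapped the next in rank. In all, 41 of the 43 genes averaged 1 FPKM or more. The other two were Nup210l at 0.496 FPKM, a relative of Nup210, and the row Ipo11-lrrc70 at 0.159 FPKM, by its symbol a readthrough of Ipo11 and its neighbour, whose reads cannot be told from those of Ipo11 in their shared exons and whose values are uncertain.

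Summed over the 43 genes, the glucose libraries held 1525 to 1603 FPKM, the inosine libraries 1565 to 1585 and those with hypoxanthine 1287 to 1295. The 3 libraries with hypoxanthine therefore lay below the other 6, which overlapped between glucose and inosine. As a share of all FPKM the genes took 0.346% to 0.383% in glucose, 0.346% to 0.372% in inosine and 0.278% to 0.303% with hypoxanthine. The 20 pore proteins summed to 474 to 516 FPKM in glucose, 491 to 514 in inosine and 423 to 438 with hypoxanthine, and the sum of the 11 importins of the beta family was 372 to 408, 388 to 405 and 314 to 328. Importins of the alpha family summed to 193 to 229, 206 to 250 and 180 to 199 FPKM, and the 5 exportins to 110 to 124, 115 to 121 and 106 to 110. In bulk RNA, a lower level cannot be told apart from fewer cells that express a gene, and FPKM gives shares of each library, not amounts per cell.

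**Figure D1:**
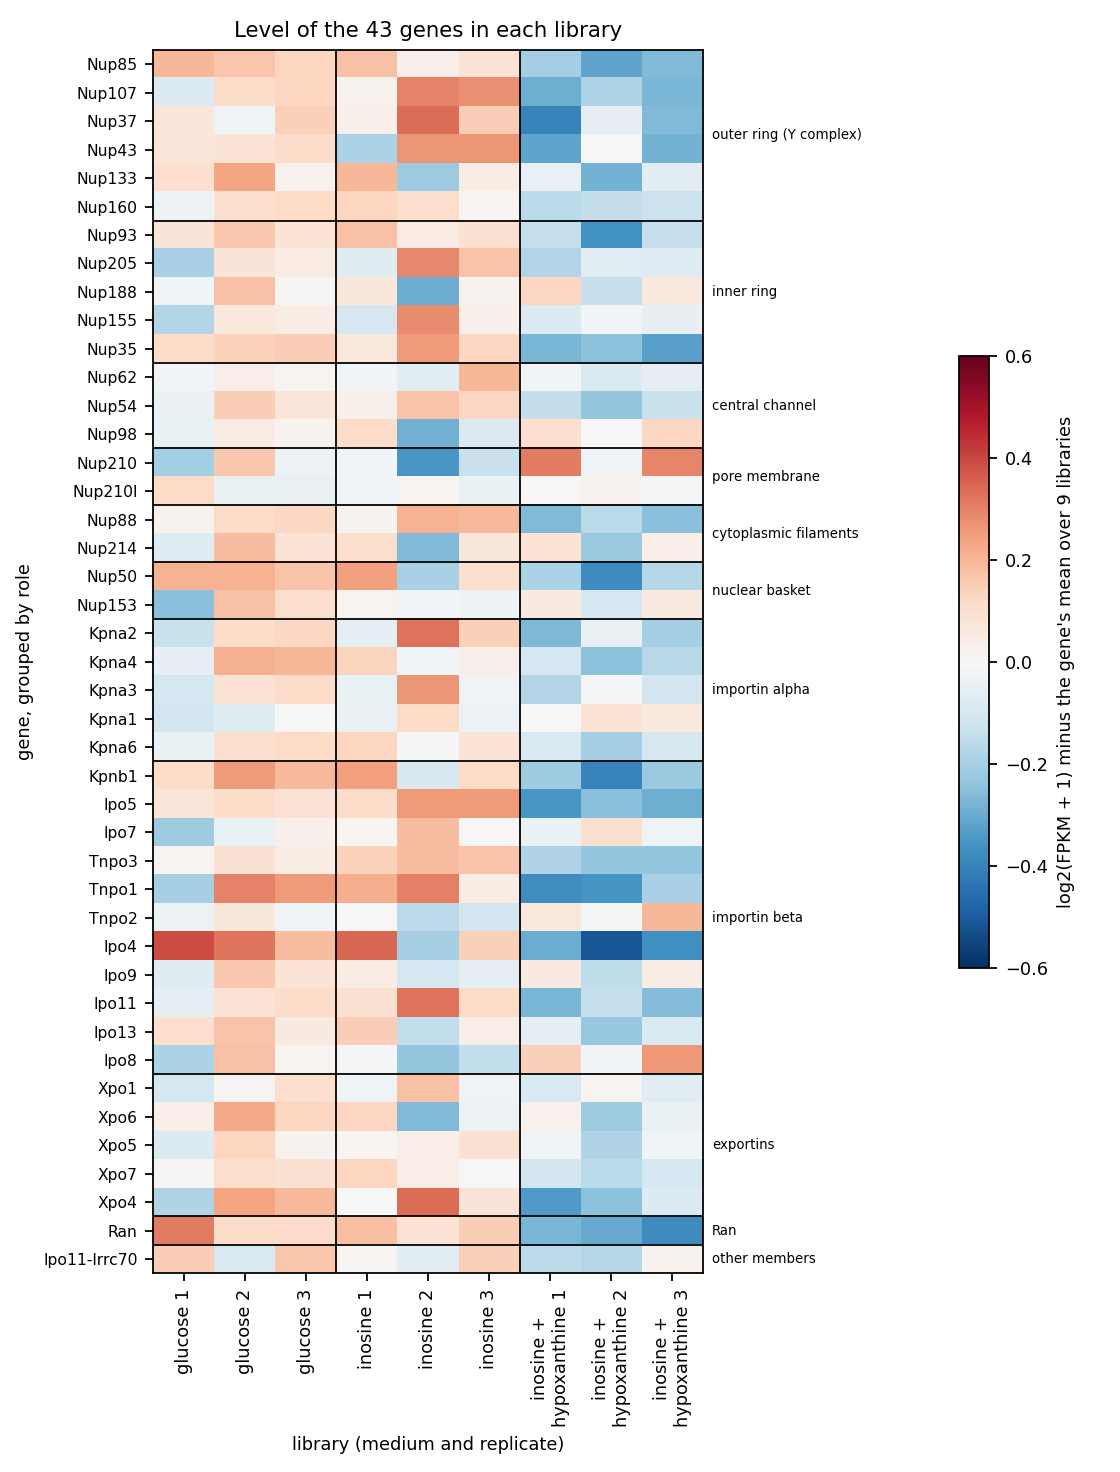
Heat map of the 43 genes (rows, grouped by role) in the 9 libraries (columns, by medium and replicate); colour is log2(FPKM + 1) minus the gene's mean over the 9 libraries, red above and blue below. Most rows are blue in the 3 libraries with hypoxanthine. Among the rows that are not, Nup210, Ipo8 and Tnpo2 lie above their mean in hypoxanthine replicates 1 and 3 and close to it in replicate 2.

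The first comparison, inosine in place of glucose, asks whether these genes differ between the sugar and the nucleoside as supplement. None of the 43 genes passed the threshold (limma, Benjamini-Hochberg adjusted p under 0.05), beside 2 of all 20618 genes (0.00970%). At an unadjusted p under 0.05 the count was also 0, and the authors' deposited table holds 0 of the 43 at an adjusted p under 0.05, beside 0.00506% of the genes tested there. The median log2 difference of the 43 was 0.01, with 22 above 0 and 21 below, and over all genes it was -0.00. The differences ran from -0.20 (Ipo4) to 0.15 (Nup205).

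The 3 genes with the smallest p in that comparison were Tnpo3, Ipo5 and Xpo6. Tnpo3, the importer of serine-arginine-rich splicing factors, stood at 27.1, 28.6 and 27.6 FPKM in glucose and 29.6, 30.6 and 30.2 in inosine, a log2 difference of 0.11 ± 0.05 (SE, unadjusted p = 0.068 and adjusted p = 1.0 in limma). Ipo5 stood at 90.1, 92.5 and 91.1 FPKM in glucose and 92.7, 102 and 102 in inosine, a difference of 0.12 ± 0.06 (unadjusted p = 0.099 in limma). These 2 genes were the members whose inosine libraries all lay above the glucose libraries, beside 2.23% of all genes. Xpo6, the exportin of actin, overlapped between 25.3, 28.99 and 26.97 FPKM in glucose and 26.97, 20.3 and 24.00 in inosine, a difference of -0.19 ± 0.11 (unadjusted p = 0.12 in limma). For the genes central to the cycle, the 95% interval of the inosine minus glucose difference was -0.21 to 0.13 for Ran, -0.32 to 0.13 for Kpnb1 and -0.14 to 0.23 for Xpo1.

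The second comparison, hypoxanthine added to inosine, asks what the free base changes when the nucleoside is already present. Of the 43 genes, 15 fell, 0 rose and 28 did not pass the threshold. The 15 are 34.9% of the 43, while 9.59% of all 20618 genes fell and 11.7% rose. Among the 9947 genes that averaged 1 FPKM or more, 16.0% fell and 16.9% rose. The share of the 43 that fell was above both backgrounds and the share that rose was below them. Neither background was matched to the 43 for level. The median of the mean level was 24.0 FPKM for the 43, 0.753 for all genes and 9.84 for those with at least 1 FPKM. Whether level had a part in these shares was not tested. The 43 genes were chosen with earlier results of these data known, so these shares are descriptions and were not tested. The median log2 difference was -0.20 over the 43 genes (34 negative and 9 positive), against 0.00 over all genes and 0.02 over those with at least 1 FPKM. All 3 libraries with hypoxanthine lay below all 3 with inosine for 20 of the 43 genes and above them for 0, while 15.6% of all genes, and 23.6% of those with at least 1 FPKM, were below in this way and 18.7% of all genes above. At an unadjusted p under 0.05, 22 were lower and 3 higher.

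By role, 4 of 6 genes of the outer ring of the pore fell, 2 of 5 of the inner ring, 1 of 3 of the central channel, 1 of 2 of the cytoplasmic filaments and 0 of 2 each of the pore membrane and the nuclear basket. Of the importins of the beta family, which carry cargo and bind Ran, 6 of 11 fell. Of the importins of the alpha family, the adaptors that read the classical localisation signal, 0 of 5 passed, and of the exportins 0 of 5. Beside these counts, 9.59% of all genes fell, and 16.0% of those with at least 1 FPKM. The median log2 difference was -0.34 for the outer ring, -0.24 for the inner ring, -0.09 for the central channel and -0.19 for the cytoplasmic filaments. It was 0.19 for the pore membrane and -0.14 for the nuclear basket. The beta family had a median of -0.37, the alpha family of -0.20 and the exportins of -0.12. Whether the roles differed from each other was not tested. In the authors' deposited table for the same libraries, 20 of the 43 had an adjusted p under 0.05 and were lower and 1 was higher, beside 11.6% and 11.1% of the 19961 genes given an adjusted p there. These 20 include the 15, and the other 5 are Kpna2, Kpna4, Kpna6, Nup50 and Xpo4. The 1 higher is Nup210. Of the 9947 genes with at least 1 FPKM, 1972 were lower in that table and 1738 higher.

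**Figure D2:**
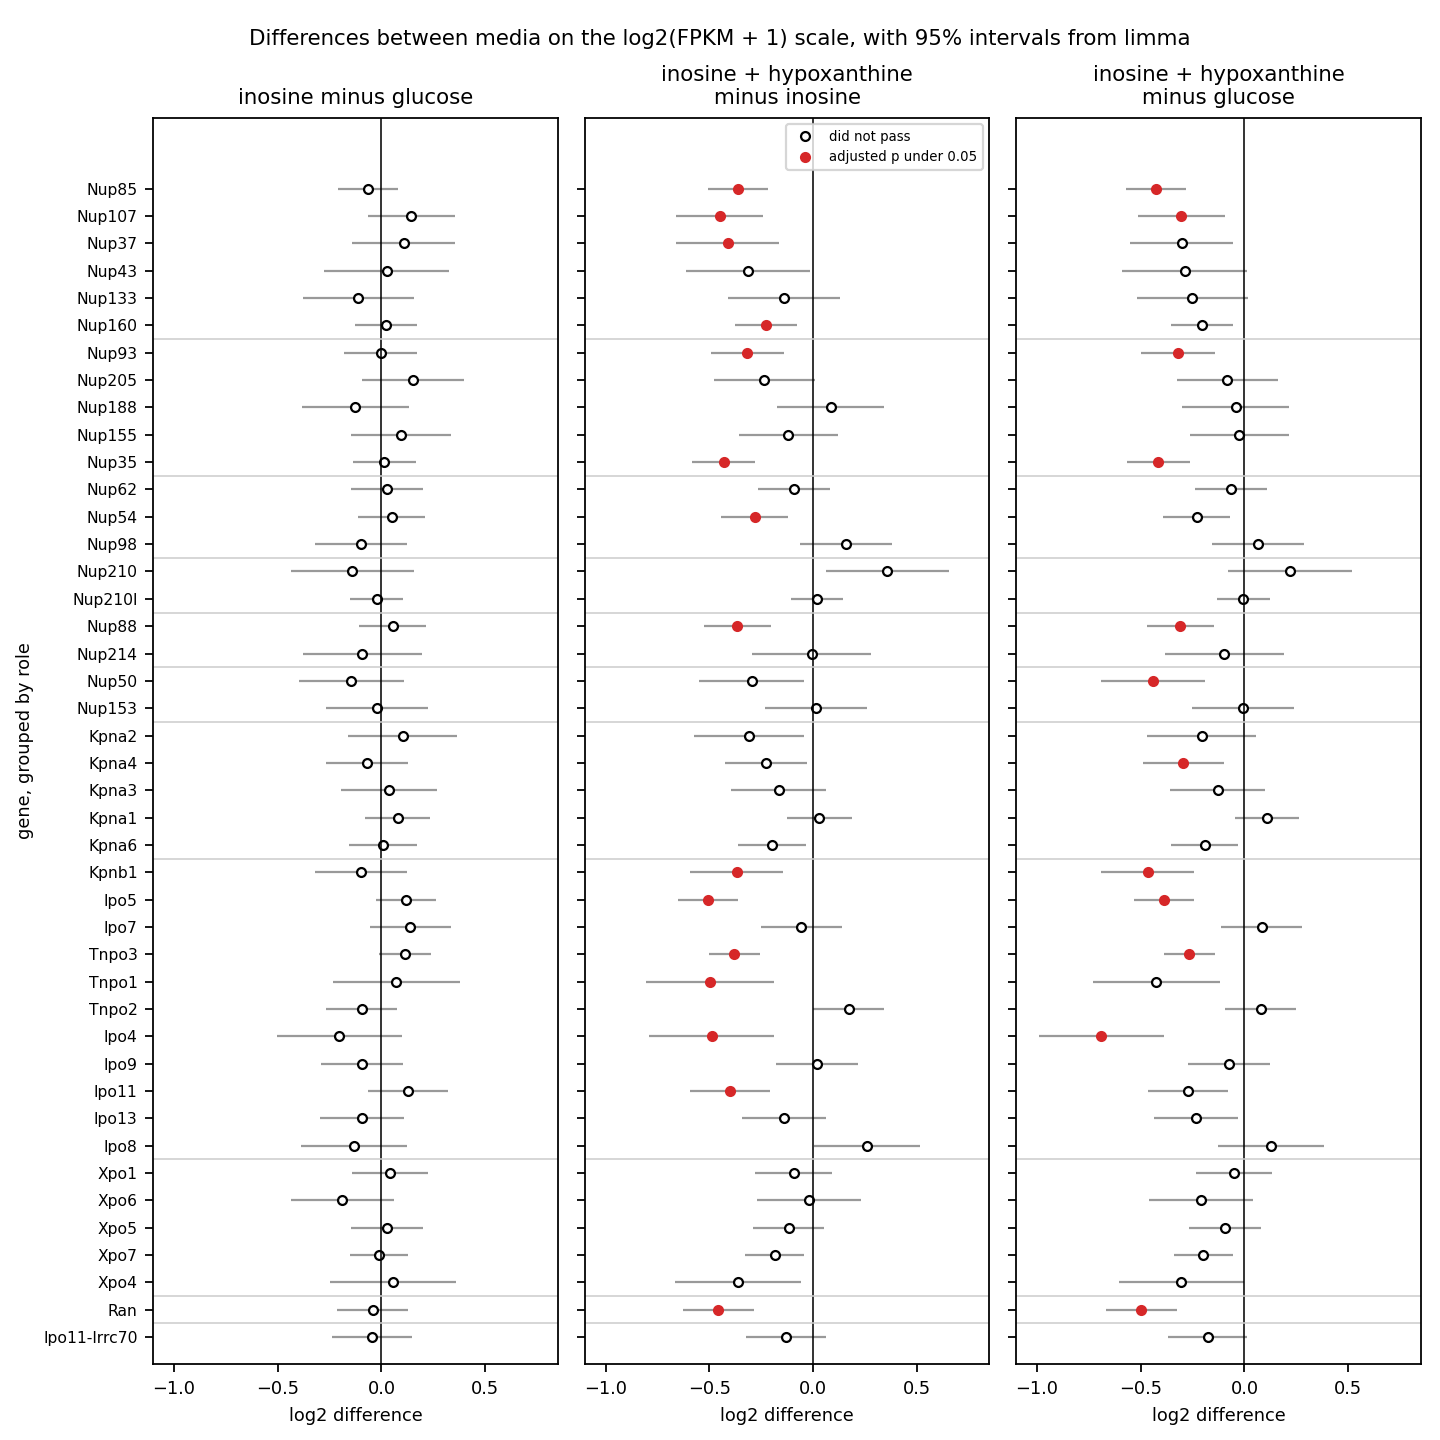
Log2 differences of the 43 genes, grouped by role, in the 3 comparisons; points are limma estimates on the log2(FPKM + 1) scale, lines are 95% intervals, and filled red points have an adjusted p under 0.05. No point is filled for inosine minus glucose, 15 are filled for hypoxanthine added to inosine and 12 for inosine plus hypoxanthine against glucose, all of them below 0.

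Ran itself (GRCm38 chromosome 5, 129020069 to 129024323) stood at 377, 328 and 329 FPKM in glucose, 344, 322 and 336 in inosine and 251, 246 and 233 with hypoxanthine, in replicates 1 to 3. The highest library with hypoxanthine was below the lowest of the other 6. From inosine (334 ± 11.3 FPKM, mean ± SD, n = 3) to inosine plus hypoxanthine (243 ± 9.16), Ran fell by 27.2% (log2 difference -0.46 ± 0.08 SE, limma adjusted p = 0.0033). In the authors' deposited table its mean normalized read count was 40519 in inosine and 28685 with hypoxanthine, the highest among the 43 genes, with a log2 fold of -0.50.

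Kpnb1, importin beta-1, which carries cargo together with an alpha adaptor, stood at 95.1, 105 and 101 FPKM in glucose, 105, 82.1 and 95.6 in inosine and 75.8, 66.4 and 75.3 with hypoxanthine. It was 22.97% lower with hypoxanthine than with inosine (log2 difference -0.37 ± 0.10 SE, limma adjusted p = 0.029). In inosine its 3 libraries spread widely. Without any 1 of 6 libraries (glucose replicate 3, inosine replicates 1 and 3, and each with hypoxanthine) the adjusted p rose above 0.05. With only the media compared it also rose above 0.05, and over all settings it was at most 0.089.

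Ipo5 (GRCm38 chromosome 14, 120911224 to 120947999), which imports ribosomal proteins and histones, had the smallest adjusted p of the 43. With hypoxanthine it stood at 66.98, 71.9 and 69.7 FPKM, below all glucose and inosine libraries given above. It fell by 29.9% against inosine (log2 difference -0.51 ± 0.06 SE, limma adjusted p = 0.00089). Tnpo3 (GRCm38 chromosome 6, 29540827 to 29609887) came next, with 23.5, 22.7 and 22.7 FPKM under hypoxanthine, a narrow set again below the other 6 libraries. Its fall against inosine was 23.9% (log2 difference -0.38 ± 0.05 SE, adjusted p = 0.0016).

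Ipo11, which carries a ubiquitin-conjugating enzyme, stood at 11.4, 12.6 and 12.8 FPKM in glucose, 12.7, 15.1 and 12.9 in inosine and 9.62, 10.6 and 9.72 with hypoxanthine. It fell by 26.2% (log2 difference -0.40 ± 0.08 SE, adjusted p = 0.01). The readthrough row Ipo11-lrrc70 stood at 0.279, 0.0845 and 0.295 FPKM in glucose, 0.166, 0.101 and 0.273 in inosine and 0.0347, 0.0244 and 0.171 with hypoxanthine, with a log2 difference of -0.13 ± 0.08 (adjusted p = 0.34). Ipo4, an importer of histones, and Tnpo1, the importer of RNA-binding proteins such as hnRNP A1, also fell. Ipo4 went from 21.7 ± 4.22 FPKM in inosine to 15.05 ± 1.20 with hypoxanthine (log2 difference -0.49 ± 0.13, adjusted p = 0.03), and Tnpo1 from 28.8 ± 2.69 to 20.1 ± 1.49 (-0.50 ± 0.14, adjusted p = 0.031). Leaving out inosine replicate 1 or any library with hypoxanthine ended both calls. So did leaving out inosine replicate 3 for Ipo4 and inosine replicate 2 for Tnpo1. Ipo4 also did not pass with only the media compared, nor Tnpo1 without both libraries of high mitochondrial share. Over all settings the adjusted p reached 0.098 for Ipo4 and 0.18 for Tnpo1.

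The other 5 importins of the beta family did not pass. Ipo7, which imports ribosomal proteins and Smads, stood at 53.3 ± 3.98 FPKM in inosine and 51.2 ± 2.72 with hypoxanthine, with an interval of the log2 difference from -0.25 to 0.14. Ipo9 had a difference of 0.02 ± 0.09 and Ipo13, a carrier in both directions, of -0.14 ± 0.09. Ipo8, an importer of Argonaute proteins, and Tnpo2, the close relative of Tnpo1, had positive differences. Ipo8 went from 9.14, 7.69 and 8.23 FPKM in inosine to 10.3, 9.11 and 11.3 with hypoxanthine (difference 0.26 ± 0.11, adjusted p = 0.14). Tnpo2 stood at 25.02, 22.3 and 23.1 and 26.2, 24.8 and 28.8 FPKM (difference 0.17 ± 0.08, adjusted p = 0.15), while Tnpo1 was at 29.4, 31.2 and 25.9 and 19.1, 19.4 and 21.8. Whether the pair of transportins differed in response was not tested, and reads from near-identical stretches of them could be assigned to either.

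**Figure D3:**
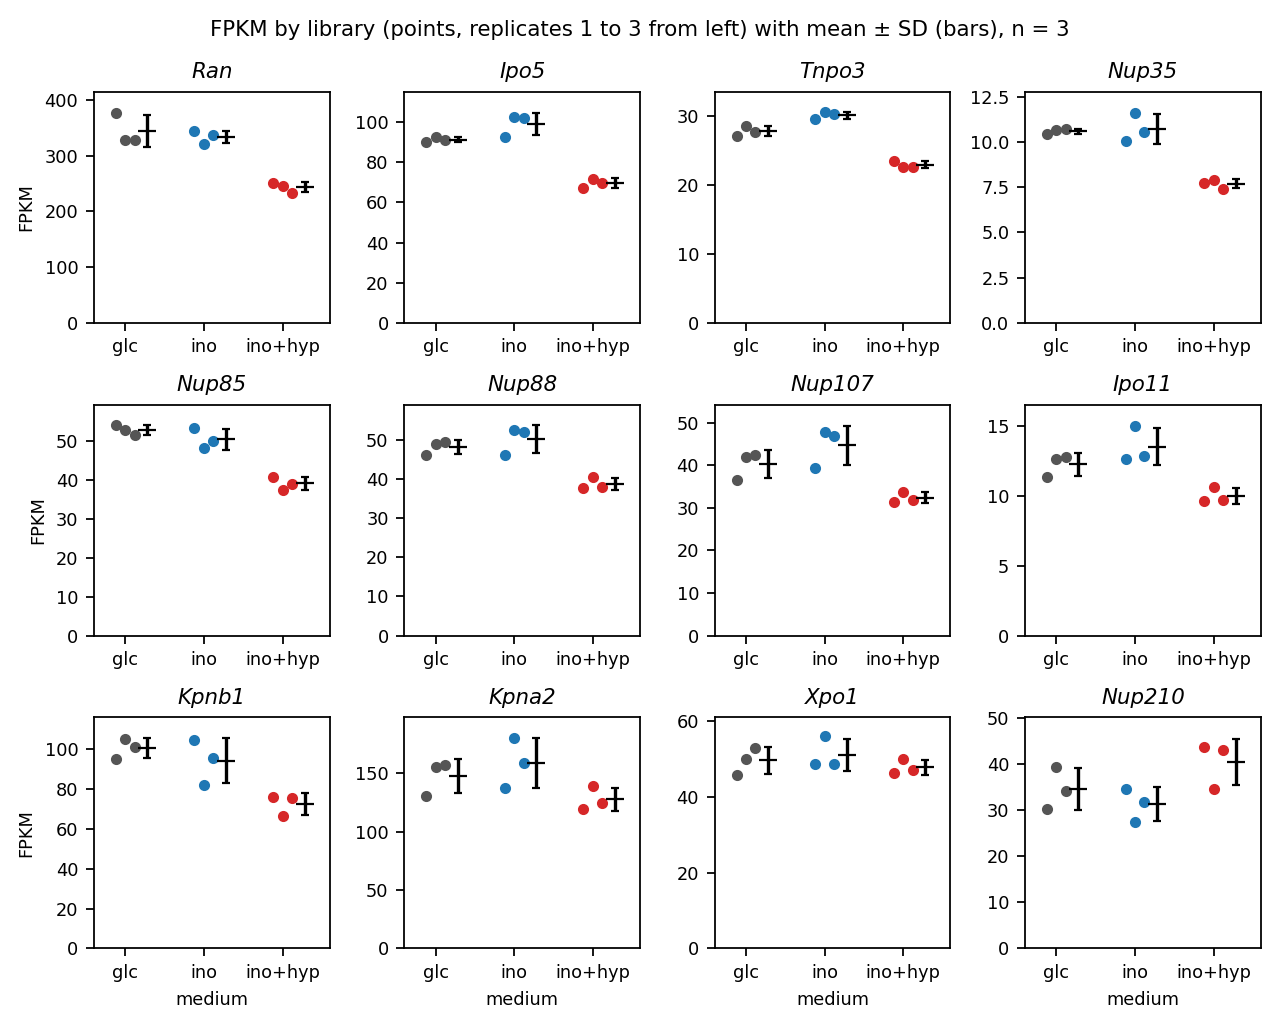
FPKM of 12 of the 43 genes by medium (glc, glucose; ino, inosine; ino+hyp, inosine plus hypoxanthine); points are libraries, replicates 1 to 3 from left, and bars are mean ± SD with n = 3. For Ran, Ipo5, Tnpo3, Nup35, Nup85, Nup88, Nup107, Ipo11 and Kpnb1 the 3 points with hypoxanthine lie below the other 6, while Kpna2, Xpo1 and Nup210 overlap.

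In the outer ring, the Y-shaped complex that forms the scaffold on both faces of the pore, Nup85 and Nup107 had the highest levels. Nup85 (GRCm38 chromosome 11, 115564434 to 115583985) stood at 54.1, 52.8 and 51.5 FPKM in glucose, 53.3, 48.1 and 49.9 in inosine and 40.7, 37.5 and 38.96 with hypoxanthine, and fell by 22.6% against inosine (log2 difference -0.36 ± 0.06 SE, limma adjusted p = 0.0045). Nup107 stood at 36.5, 41.9 and 42.4, 39.3, 47.7 and 47.00 and 31.4, 33.8 and 31.8 FPKM and fell by 27.6% (-0.45 ± 0.09, adjusted p = 0.0093). For both genes no library with hypoxanthine reached the range of the other 6. Nup37 stood at 34.6, 32.3 and 36.4 FPKM in glucose, 33.6, 41.7 and 36.6 in inosine and 24.7, 31.8 and 27.2 with hypoxanthine, and fell by 25.3% against inosine (-0.41 ± 0.11, adjusted p = 0.028). Replicate 2 was the highest of Nup37 in inosine and with hypoxanthine alike. The call ended without inosine replicate 2 or 3, without replicate 1 or 3 with hypoxanthine, and with only the media compared. Its adjusted p was at most 0.096 over all settings. Nup160 was the lowest of the ring, at 6.79 ± 0.335 FPKM in inosine and 5.66 ± 0.0825 with hypoxanthine (-0.23 ± 0.07, adjusted p = 0.041). Its call was lost in 8 of the 9 fits that left out a library, the exception being glucose replicate 1. The call was also lost with the replicate block and without both libraries of high mitochondrial share. Nup43 (-0.31 ± 0.13) and Nup133 (-0.14 ± 0.12) did not pass, although both differences were negative. Without inosine replicate 1 the adjusted p of Nup43 was 0.014.

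In the inner ring, Nup35, a protein that binds the membrane of the pore, stood at 10.4, 10.6 and 10.7 FPKM in glucose, 10.02, 11.6 and 10.5 in inosine and 7.72, 7.91 and 7.42 with hypoxanthine. It fell by 28.3% against inosine (log2 difference -0.43 ± 0.07 SE, limma adjusted p = 0.0025). Every library with hypoxanthine lay below those of the other media, which overlapped each other. Nup93, the organiser of the ring, stood at 37.2, 39.6 and 37.4, 39.9, 36.5 and 37.6 and 31.9, 27.2 and 31.9 FPKM and fell by 20.1% (-0.32 ± 0.08, adjusted p = 0.02, rising to 0.053 without inosine replicate 1 and 0.056 without inosine replicate 3). The large scaffold proteins of the same ring did not pass. Nup205 stood at 25.8, 31.4 and 30.8 FPKM in glucose, 28.2, 36.5 and 33.6 in inosine and 26.2, 28.4 and 28.1 with hypoxanthine (-0.24 ± 0.11, adjusted p = 0.17). Without inosine replicate 1 its adjusted p was 0.046. Nup188 had a difference of 0.08 ± 0.11 and Nup155 of -0.12 ± 0.11.

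Central channel proteins carry phenylalanine-glycine repeats that form the permeability barrier. Of these Nup54 stood at 23.6, 26.97 and 25.6 FPKM in glucose, 24.8, 27.5 and 26.5 in inosine and 21.9, 20.5 and 22.02 with hypoxanthine, and fell by 18.3% against inosine (log2 difference -0.28 ± 0.07 SE, limma adjusted p = 0.023). Its call ended without inosine replicate 2 or 3 or any library with hypoxanthine, with adjusted p of 0.054 to 0.073, and without both libraries of high mitochondrial share (0.11). Its channel partner Nup62 overlapped, at 33.9, 35.3 and 34.7 FPKM in glucose, 33.9, 32.7 and 39.6 in inosine and 33.9, 32.2 and 32.96 with hypoxanthine (-0.09 ± 0.08, adjusted p = 0.47). Nup98 had a difference of 0.16 ± 0.10 (adjusted p = 0.31).

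At the cytoplasmic face, Nup88 and Nup214 form a complex that holds exportin cargo. Nup88 stood at 46.1, 48.98 and 49.5 FPKM in glucose, 46.04, 52.5 and 52.01 in inosine and 37.6, 40.4 and 38.02 with hypoxanthine. Every library with hypoxanthine lay below those of the other media, and Nup88 fell by 22.9% against inosine (log2 difference -0.36 ± 0.07 SE, limma adjusted p = 0.0071). Its partner Nup214 stood at 8.79, 10.8 and 9.96, 10.1, 7.61 and 9.86 and 9.94, 7.86 and 9.63 FPKM, with an interval of the hypoxanthine difference from -0.29 to 0.28. In the nuclear basket, Nup50, which helps to release import cargo, stood at 27.5, 27.5 and 26.8 FPKM in glucose, 28.3, 20.6 and 25.5 in inosine and 20.7, 18.01 and 20.98 with hypoxanthine (-0.30 ± 0.11, adjusted p = 0.098). The low inosine replicate 2 of Nup50 lay inside the range with hypoxanthine, and without it the adjusted p was 0.011. Nup153, the other basket protein, overlapped, at 15.9, 21.6 and 20.6 FPKM in glucose, 19.3, 18.8 and 18.6 in inosine and 19.8, 17.7 and 19.8 with hypoxanthine (0.01 ± 0.11, adjusted p = 0.98).

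Nup210, the glycoprotein that spans the pore membrane, had the largest positive difference of the 43. It stood at 30.3, 39.4 and 34.2 FPKM in glucose, 34.7, 27.3 and 31.8 in inosine and 43.6, 34.6 and 43.1 with hypoxanthine, where replicate 2 was the lowest in both inosine media. The log2 difference was 0.36 ± 0.13 (SE, limma adjusted p = 0.089), and without hypoxanthine replicate 2 the adjusted p was 0.048. In a fit of only the genes that averaged 1 FPKM or more it was 0.034, and the authors' deposited table gives a log2 fold of 0.33 with an adjusted p of 0.032. Nup210l was low throughout and overlapped, at 0.619, 0.452 and 0.452 FPKM in glucose, 0.478, 0.511 and 0.455 in inosine and 0.493, 0.516 and 0.491 with hypoxanthine (0.02 ± 0.06, adjusted p = 0.88).

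Among the import adaptors, Kpna2 took 66.2% to 72.0% of the summed importin alpha level in every library. Kpna2 stood at 131, 155 and 157 FPKM in glucose, 138, 180.1 and 159 in inosine and 119, 139 and 125 with hypoxanthine, where the ranges overlapped by 1 inosine library (log2 difference -0.31 ± 0.12 SE, limma adjusted p = 0.097). Without inosine replicate 1 its adjusted p was 0.039. Kpna4 stood at 24.7, 29.9 and 29.5 FPKM in glucose, 28.2, 25.3 and 26.3 in inosine and 23.7, 21.4 and 22.7 with hypoxanthine, where inosine and hypoxanthine did not overlap (-0.23 ± 0.09, adjusted p = 0.1, and 0.046 without glucose replicate 1). Kpna3, Kpna6 and Kpna1 had differences of -0.17, -0.20 and 0.03 and did not pass, Kpna6 passing with median ratio scaling and without the trend and robust settings.

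Xpo1, the exportin of proteins with a leucine-rich signal, stood at 45.8, 50.1 and 53.05 FPKM in glucose, 48.7, 56.01 and 48.7 in inosine and 46.3, 49.98 and 47.1 with hypoxanthine. The groups overlapped, and the interval of the log2 difference was -0.28 to 0.09. Xpo6 stood at 25.1, 21.1 and 23.9 FPKM with hypoxanthine (-0.02 ± 0.11 against inosine). Xpo5, which exports microRNA precursors, had a difference of -0.12 ± 0.08, Xpo7 of -0.19 ± 0.06 (adjusted p = 0.065) and Xpo4, which exports a translation factor, of -0.36 ± 0.13 (adjusted p = 0.093). For Xpo4, Xpo5 and Xpo7 the libraries with hypoxanthine all lay below those with inosine.

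Over 16 other ways of processing or leaving out libraries, 8 of the 15 falls passed in every one: Ran, Ipo5, Ipo11, Tnpo3, Nup35, Nup85, Nup88 and Nup107. The count of 15 dropped to 9 without inosine replicate 3, without hypoxanthine replicate 1 and without hypoxanthine replicate 3, and to 10 without hypoxanthine replicate 2. Without both libraries of high mitochondrial share it was 13, of which 12 were among the 15. Of the 28 genes that did not pass, 9 passed in at least 1 of the 16 settings: Kpna2, Kpna4, Kpna6, Nup43, Nup50, Nup205, Nup210, Xpo4 and Xpo7. The summed CD8 T cell markers were higher in the 3 libraries with hypoxanthine than in the other 6, as given above, and their part in the result was not tested.

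The third comparison sets inosine plus hypoxanthine against glucose, and it shares the hypoxanthine libraries with the second. Here 12 of the 43 genes fell and 0 rose (27.9%, beside 9.55% of all genes that fell and 10.8% that rose). Of the genes with at least 1 FPKM, 15.9% fell. The median log2 difference of the 43 was -0.21, against 0.00 over all genes. By the authors' deposited table, 25 of the 43 were lower at an adjusted p under 0.05 and 0 higher, beside 13.8% and 12.7% of all genes there. Of the 9947 genes with at least 1 FPKM, 2361 were lower in that table and 2012 higher. For 23 of the 43 genes the libraries with hypoxanthine all lay below those in glucose and for 0 above, beside 17.8% and 19.8% of all genes. Of the 9947, 2793 lay below in this way and 2681 above.

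Ipo4 had the largest difference from glucose, at 26.5, 25.2 and 22.9 FPKM in glucose and 16.1, 13.7 and 15.3 with hypoxanthine, and fell by 39.5% (log2 difference -0.69 ± 0.13 SE, limma adjusted p = 0.007). Ran fell by 29.4% (-0.50 ± 0.08, adjusted p = 0.0023), Kpnb1 by 27.8% (-0.47 ± 0.10, adjusted p = 0.011) and Nup35 by 27.4% (-0.42 ± 0.07, adjusted p = 0.003). Falls of Nup85 (-0.43 ± 0.06), Ipo5 (-0.39 ± 0.06) and Tnpo3 (-0.27 ± 0.05) also passed under each of the 16 other settings, as did those of Ipo4, Ran, Kpnb1 and Nup35. The other 5 were Nup50 (-0.44 ± 0.11), Nup93 (-0.32 ± 0.08), Nup88 (-0.31 ± 0.07), Nup107 (-0.30 ± 0.09) and Kpna4 (-0.29 ± 0.09), whose adjusted p lay between 0.016 and 0.048. Each of these 5 lost its call without glucose replicate 2 and without glucose replicate 3, which left 7 in both cases. Nup50, Nup88, Nup107 and Kpna4 also lost it without hypoxanthine replicates 1 or 3, and Nup50, Nup107 and Kpna4 without hypoxanthine replicate 2. Without inosine replicate 3 Nup107 and Kpna4 did not pass, nor Nup50 without glucose replicate 1. Nup107 also lost its call with median ratio scaling and without the trend and robust settings. Kpna4 lost its call with only the media compared and with the replicate block. Without both libraries of high mitochondrial share neither Nup107 nor Kpna4 passed. Over the settings the adjusted p reached 0.15 for Nup107 and 0.14 for Kpna4.

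With earlier results of these data known, 3 lists of pore and transport genes outside the naming rule were chosen, with 44 genes in the tables. With hypoxanthine against inosine, 15 of them fell and 1 rose (34.1% and 2.27%, beside 9.59% and 11.7% of all genes, and 16.0% and 16.9% of those with at least 1 FPKM), and the median log2 difference was -0.16. Against glucose 12 fell and 1 rose (27.3% and 2.27%, beside 9.55% and 10.8% of all genes). Of 13 other pore proteins 4 fell against inosine (30.8%). Of 20 genes of messenger RNA export 3 fell, a share no higher than the 16.0% of genes with at least 1 FPKM. Of 11 genes of the Ran cycle and other carriers, 8 fell (72.7%): Rangrf, Ranbp1, Rcc1, Ranbp3, Nutf2, Cse1l, Xpot and Snupn. The shares of these lists were not tested against those of all genes. In inosine against glucose 0 of the 44 passed in limma in either direction, also at an unadjusted p under 0.05. The count of 15 was 7 or 8 without inosine replicate 3 or any 1 library with hypoxanthine, and 8 when only the inosine media were fitted. The count of 12 was 6 or 7 without glucose replicates 2 or 3 or hypoxanthine replicates 1 or 3.

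Within the Ran cycle list, Rangrf, which releases guanine nucleotide from Ran, stood at 25.3, 21.2 and 23.6 FPKM in glucose, 23.1, 26.05 and 22.8 in inosine and 11.9, 13.97 and 12.6 with hypoxanthine. It fell by 46.5% (log2 difference -0.85 ± 0.09 SE, limma adjusted p = 0.0004), a larger estimate than for any of the 43 genes. Ranbp1, which helps Ran to hydrolyse GTP in the cytoplasm, was about as abundant as Ran and narrow with hypoxanthine. It stood at 361, 344 and 338 FPKM in glucose, 307, 352 and 336 in inosine and 239, 236 and 236 with hypoxanthine, and fell by 28.5% (-0.48 ± 0.07, adjusted p = 0.0017). Rcc1, the exchange factor that loads Ran with GTP on chromatin, stood at 54.8, 60.1 and 54.8, 56.7, 50.01 and 57.9 and 41.1, 34.6 and 37.97 FPKM and fell by 30.9% (-0.52 ± 0.09, adjusted p = 0.0034). No library with hypoxanthine reached the other 6 in these 3 genes. The GTPase activator Rangap1, named after its values were seen, overlapped between 98.9, 72.8 and 90.4 FPKM in inosine and 81.8, 63.7 and 75.8 with hypoxanthine (-0.24 ± 0.12, adjusted p = 0.23). Ranbp17, the 1 gene that rose, had at most 0.0442 FPKM in any library, and against inosine it no longer passed in 8 of the 9 fits that left out a library, the exception being hypoxanthine replicate 3.

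Sec13, shared by the outer ring of the pore and the COPII coat, stood at 108, 103 and 106 FPKM in glucose, 104, 122 and 121 in inosine and 85.1, 92.6 and 85.2 with hypoxanthine and fell by 24.2% (log2 difference -0.39 ± 0.08 SE, limma adjusted p = 0.0079). Nupl1, the older symbol of the channel protein Nup58, stood at 16.3, 20.1 and 20.2 FPKM in glucose, 20.6, 19.9 and 19.5 in inosine and 15.7, 15.6 and 16.8 with hypoxanthine and fell by 19.8% (-0.30 ± 0.09, adjusted p = 0.038). Seh1l, another outer ring protein, stood at 18.7, 17.2 and 18.05, 18.6, 19.3 and 16.9 and 14.5, 15.4 and 15.8 FPKM in the same order and fell by 16.5% (-0.24 ± 0.07, adjusted p = 0.038). Aaas was the other pore protein of the list that fell. In messenger RNA export, Thoc6 of the THO complex stood at 16.5, 16.03 and 15.8 FPKM in glucose, 14.96, 15.2 and 16.2 in inosine and 10.2, 10.5 and 9.91 with hypoxanthine and fell by 33.8% (-0.55 ± 0.06, adjusted p = 0.0004). Sarnp stood at 85.7, 75.8 and 87.8 FPKM in glucose, 82.02, 95.4 and 86.9 in inosine and 62.3, 70.1 and 61.2 with hypoxanthine and fell by 26.7% (-0.44 ± 0.09, adjusted p = 0.0083). The export adaptor Alyref stood at 102, 96.3 and 97.1, 93.98, 94.3 and 106 and 83.3, 77.8 and 83.1 FPKM and fell by 17.03% (-0.26 ± 0.07, adjusted p = 0.026). The helicase Ddx39b, the most abundant of that list, overlapped at 173, 165 and 152 FPKM in glucose, 162, 149 and 154 in inosine and 151, 138 and 150.0 with hypoxanthine (-0.08 ± 0.07, adjusted p = 0.48).

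Promoter sequences from RefSeq (GRCm38.p6) were matched for 34 of the 43 genes, as the 250 bases before each start. These 34 genes had 41 promoter entries, and a gene was counted if any of its entries held a motif. The same rule was used for all genes. The hexamer CACGTG, the E-box bound by Myc and related factors, which reads the same on both strands, was present in 6 of the 34 (17.6%). It was present in 6.86% of 27025 genes with a promoter, and in 8.53% of the 15564 of them in the tables. Of the 13 matched genes that fell with hypoxanthine against inosine 3 held it (Ran, Nup93 and Nup54), and of the 21 that did not pass 3 held it (Ipo7, Nup188 and Tnpo2). Nup188 and Tnpo2 held it at 2 places each, and Ran, Nup93, Nup54 and Ipo7 at 1. A match is a description of the letters, not of binding. The stretches of the 3 genes that fell and of Ipo7, which did not pass, are shown 5′ to 3′ on the gene's strand, with the hexamer in capitals, to show that it stands in each promoter in an otherwise different sequence.
Ran: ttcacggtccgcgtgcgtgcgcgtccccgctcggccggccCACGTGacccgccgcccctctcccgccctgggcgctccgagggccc
Nup93: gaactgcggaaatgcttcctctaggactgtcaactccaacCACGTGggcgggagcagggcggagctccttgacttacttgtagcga
Nup54: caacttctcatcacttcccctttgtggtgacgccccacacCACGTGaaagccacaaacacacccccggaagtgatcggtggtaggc
Ipo7: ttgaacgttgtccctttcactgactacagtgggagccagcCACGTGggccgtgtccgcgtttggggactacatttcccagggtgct
The stretch of Ran lies at chr5:129019998-129020083 on the plus strand, with the hexamer 118 bases before the start of RefSeq's gene model. That start lies 87 bases inside the GENCODE gene given above, and the hexamer is 31 bases before the GENCODE start. Nup93 lies at chr8:94214349-94214434 (plus strand, 175 bases before both starts), Nup54 at chr5:92435254-92435339 (minus strand, 100 bases before the RefSeq start and 80 before the GENCODE start) and Ipo7 at chr7:110018138-110018223 (plus strand, 137 and 96 bases).

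A pair of other motifs was searched in the same windows on both strands. The E2F-type heptamer TTCCCGC (or GCGGGAA) was present in 3 of the 34 genes (8.82%): Nup107, Nup210 and Tnpo1. It was present in 4.38% of all genes and 6.52% of those in the tables. The ETS-type heptamer CCGGAAG (or CTTCCGG) was present in 6 (17.6%): Ipo4, Nup37, Nup54, Nup107, Nup155 and Tnpo3. Its shares were 7.83% of all genes and 12.03% of those in the tables. Of the 13 matched genes that fell with hypoxanthine against inosine, 5 held the ETS-type heptamer and 2 the E2F-type. Of the 21 that did not pass, 1 held the ETS-type (Nup155) and 1 the E2F-type. Whether a motif went with a fall was not tested. Both heptamers hold the letters TTCC on 1 strand.

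Within a medium the 43 genes varied about as much as other genes. For the 43 the median SD of log2(FPKM + 1) was 0.095 (glucose), 0.11 (inosine) and 0.086 (with hypoxanthine), and for all genes with at least 1 FPKM it was 0.094, 0.13 and 0.087. Libraries of all 3 media deviated along the GC content of the transcripts. Over the 42 genes with a known transcript, the deviation of a library from the mean of the other two of its medium had a Pearson r with GC content of 0.39, 0.08 and -0.72 in glucose replicates 1 to 3, 0.49, -0.72 and 0.66 in inosine and 0.64, -0.57 and 0.24 with hypoxanthine. Over all genes with at least 1 FPKM the values were 0.32, -0.01 and -0.58 in glucose, 0.24, -0.43 and 0.45 in inosine and 0.46, -0.44 and 0.11 with hypoxanthine. The 43 genes thus leaned with GC content in the same direction as other genes in 8 of the 9 libraries. Glucose replicate 2 was near 0 for GC content in both sets of genes. With log2 exon length, the r of the 43 genes ran from -0.48 (glucose replicate 1) to 0.50 (glucose replicate 2). In glucose replicate 1, 36 of the 43 lay below the mean of the other libraries of that medium, and in replicate 2, 37 lay above it. Within a medium the 3 deviations sum to 0, so 1 library that departs moves the values of the other two. The hypoxanthine minus inosine difference itself had an r of 0.26 with GC content over the 42 genes and the difference from glucose one of -0.00. Over the genes with at least 1 FPKM and a known transcript these values were 0.06 and -0.02. Genes within a library are not independent, and these values are descriptions.

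**Figure D4:**
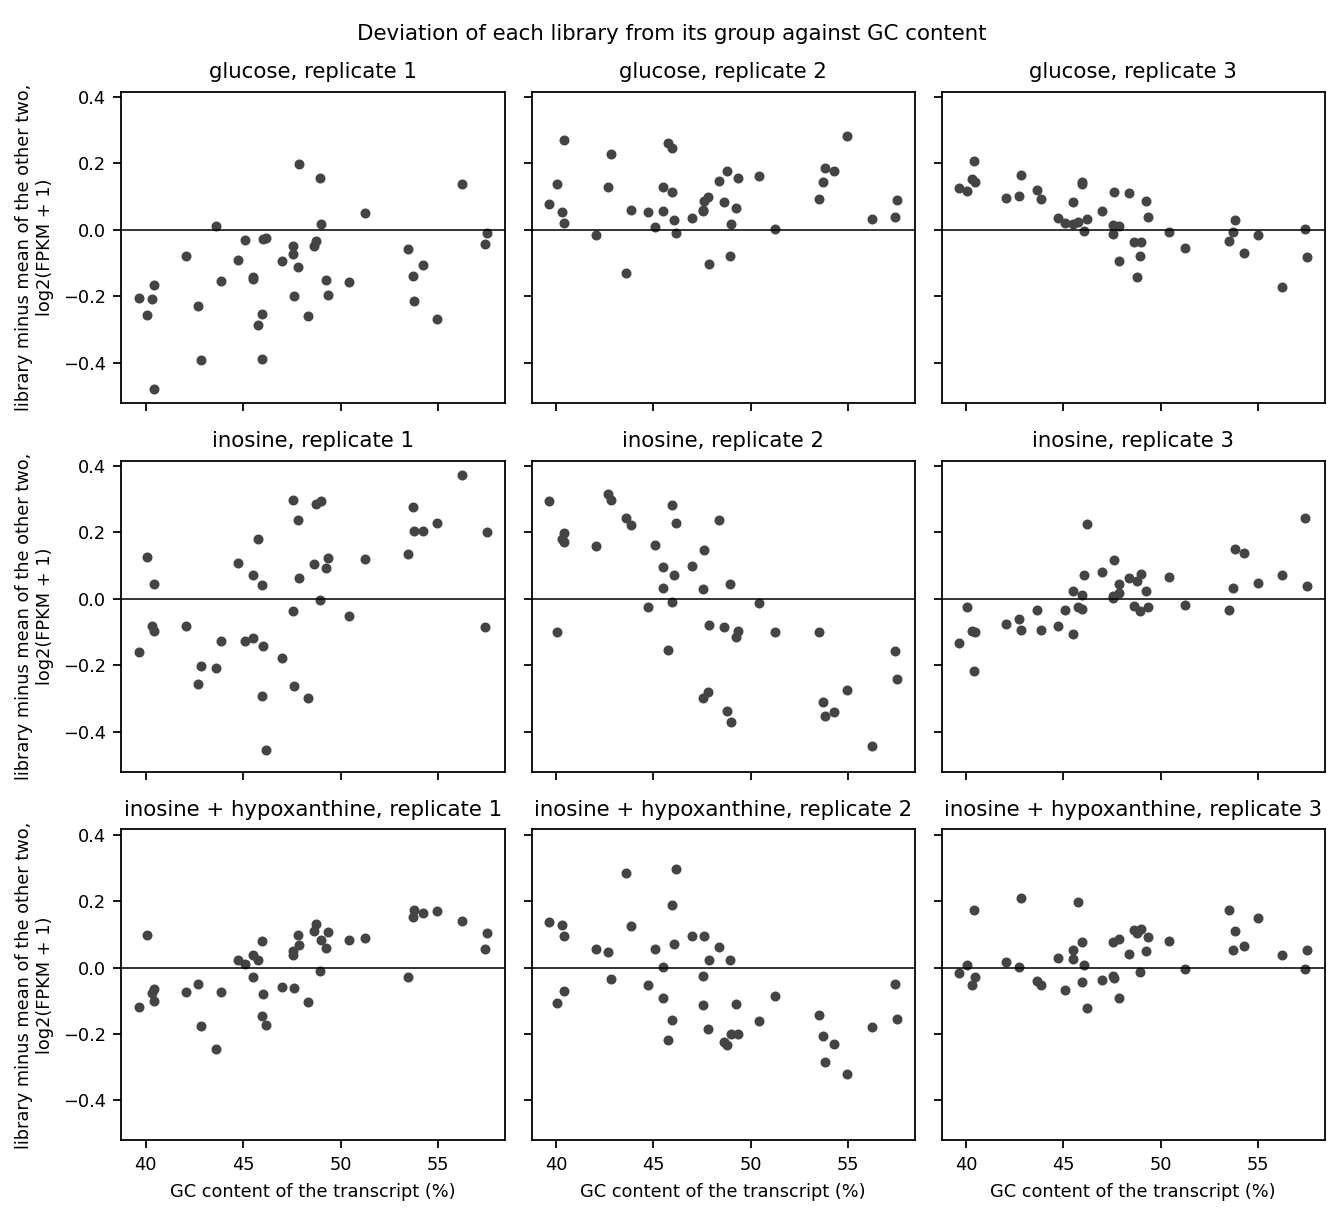
Deviation of each library from the mean of the other two of its medium in log2(FPKM + 1) against GC content of the transcript in percent, 1 point per gene, for 42 of the 43 genes. Points slope downward in glucose replicate 3 (r of -0.72), inosine replicate 2 (-0.72) and hypoxanthine replicate 2 (-0.57), slope upward in inosine replicate 3 (0.66) and hypoxanthine replicate 1 (0.64), and show little slope in glucose replicate 2 (0.08).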

How the data were processed

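RNA-seq of 9 libraries of sorted CD8+ T cells was used, 3 per medium. The genome was mm10 and the tools were HISAT2, DESeq2 1.38.3, Subread 2.0.1 and featureCounts, per the submitters' processing notes. What each tool did and the strand of counting are not given in the sources used here. FPKM for each library was computed by the authors; that these values are scaled by length was checked, since the log2 ratio of read count to FPKM had an r of 0.78 with log2 exon length over 9559 genes. The tables also hold a group mean signal, which the authors deposited as normalized read counts, and the authors' log2 fold changes, p-values and adjusted p-values, taken from the authors' deposited table where named, with signs set to numerator minus denominator.

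All 20618 genes were fitted on the log2(FPKM + 1) scale with limma 3.58.1 (R 4.3.3, trend and robust settings), using the 9 libraries together (6 residual degrees of freedom), and p-values were Benjamini-Hochberg adjusted over all genes. Every log2 difference is on this scale, and changes of low genes are understated by it. Fold changes in percent compare mean FPKM. A gene passed at an adjusted p under 0.05, with no filter. Full values were given for the 12 genes with the smallest adjusted p in hypoxanthine against inosine, the 2 of highest mean FPKM in each role, the 3 of smallest p in inosine against glucose, and, of each list outside the naming rule, the 3 of smallest adjusted p and the 1 of highest mean. The members, roles, lists and tests were chosen with earlier results of these data known. Coordinates and GC content are from GENCODE gene models of GRCm38, the assembly also called mm10. Nup58 and Nup42 have rows under their older symbols Nupl1 and Nupl2, which the naming rule does not take, and were followed among the other pore proteins. Kpna7 and the markers Trac and Trbc2 had no row under these symbols and were not analysed here. Alternatives were another pseudocount (0.1), a filter on a mean of at least 1 FPKM, median ratio scaling, limma without trend and robust settings, a fit of only the media compared, the replicate number as a block, and each library left out; leaving out both libraries of high mitochondrial share was chosen after seeing the data.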

Additional observations from a re-analysis of the deposited data

How the results depend on the processing

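In inosine minus glucose, 0 of the 43 genes passed in every setting tried, and all genes called numbered 2, or 0 with the mean FPKM filter, without trend and robust settings and with only the media compared, 1 without both libraries of high mitochondrial share, and 1 to 7 without 1 library each. Hypoxanthine against inosine gave 15 lower, 12 to 18 over the planned settings other than leaving out a library, and 9 to 17 without 1 library; the higher count was 0, or 1 with the mean FPKM filter (Nup210), and 0 to 1 without 1 library. All genes called numbered 4382, and 2757 to 4487 without 1 library, lowest without hypoxanthine replicate 3. Hypoxanthine against glucose gave 12 lower, 7 to 16 without 1 library, and 4192 genes in all, 2677 to 4879 without 1 library. Of the 44 other pore and transport genes, 15 fell against inosine (8 with only the media compared, 7 to 14 without 1 library) and 12 against glucose (6 to 17 without 1 library). The 1 that rose, Ranbp17, dropped to 0 against inosine with the filter, without trend and robust settings, with only the media compared, with the replicate block and without both libraries of high mitochondrial share, and against glucose to 0 with the filter, without trend and robust settings and without those libraries. Leaving out 1 library gave 0 to 1 in both.

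The numbers in the library names do not pair the samples by the labels, and same-numbered libraries had correlations of their deviations over 9947 genes from -0.27 (glucose and inosine replicate 3) to 0.64 (inosine and hypoxanthine replicate 2), so not every library correlated best with its own number. With the replicate block, 16 of the 43 were lower against inosine and 13 against glucose, and all genes called numbered 1 for inosine minus glucose, 4396 and 4251. Among the 44 other genes the block gave 11 lower against inosine and 12 against glucose.

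Of the 43 genes, 6 changed the sign of their difference from inosine in at least 1 setting (Ipo7, Ipo9, Nup153, Nup188, Nup214 and Xpo6) and 4 that of their difference from glucose (Nup153, Nup155, Nup188 and Nup210l), and 0 of these had passed. Leaving out 1 library moved Nup214 between -0.12 and 0.089 (above 0 without inosine replicate 1 or 3 or hypoxanthine replicate 2), Nup153 between -0.014 and 0.066 (below 0 without hypoxanthine replicate 1 or 3), and Xpo6 between -0.12 and 0.072 (above 0 without inosine replicate 1 or hypoxanthine replicate 2). The cause was not tested. Per-library read totals were not used, so the counting error of each FPKM value is unknown, and with 3 libraries per medium falls of the size of Nup160 passed or missed with the setting.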
